A study of Mus musculus with 48 samples.

Results

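The Runx family and its shared partner were examined as 4 loci, Runx1, Runx2, Runx3 and Cbfb, in accessible chromatin of tumour-infiltrating CD8 T cells. A peak of the deposited table belonged to a locus when it overlapped the protein-coding gene body (the gene with the boundary nearest the peak middle where several overlapped), or else when that gene body was the nearest within 100 kb. This rule used positions and gene names, and no measured value. It gave 96 of 53868 peaks: 26 for Runx1, 45 for Runx2, 23 for Runx3 and 2 for Cbfb, of which 61 overlapped the gene body and 35 lay outside it.

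Accessibility was measured by ATAC-seq, in which the Tn5 transposase cuts open chromatin and the cut fragments are sequenced. All 48 libraries came from Cas9-expressing OT-1 CD8 T cells (T cells with a transgenic receptor for ovalbumin) that bear the CD45.1 allele. They had been isolated from spleen, given a guide RNA by a lentivirus with an ametrine reporter, and were transferred 1 day before B16-OVA melanoma cells. The cells were sorted from tumours 15 days after inoculation, with cells of independent mice pooled and 5000 to 50000 cells for each combination. Hosts were aged or young, read from the letters A and Y of the sample titles. Guides were Zfp219, Dusp5 or the control named OTC, so the OTC cells also carried Cas9, a guide and the vector. States were sorted on Slamf6 and Tim-3: Tprog (Slamf6+Tim-3-, labelled progenitor exhausted), Ttran (both markers, labelled transitory and effector-like), Tterm (Slamf6-Tim-3+, labelled terminally exhausted) and Ttad (neither marker, labelled age-associated dysfunctional, aged hosts alone). Of the 21 groups, 15 had 2 libraries and 6 had 3. The p-values measure the spread between these pooled libraries, since the mice in each pool were not given in the sources used here.

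RUNX proteins bind DNA through the Runt domain, which prefers TGTGGT or TGCGGT, and CBFb, the product of Cbfb, joins them without touching DNA itself and strengthens the binding. Runx3 silences Cd4 and drives the cytotoxic programme in CD8 T cells, Runx1 serves blood stem cells and early thymocytes, and Runx2 is best known as the regulator of bone formation and is also expressed in T cells. Runx genes have a distal promoter and, further into the gene, a proximal promoter that starts a shorter first coding segment.

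The promoter sequences are shown because the strongest peaks of Runx1 and Runx3 cover the distal promoters; many of the differences below lie elsewhere in the loci. In RefSeq's promoter table (GRCm38.p6, 250 bases before to 50 after each start) the 4 genes had 6 promoters: a distal and a proximal one for Runx1 and for Runx3, and 1 each for Runx2 and Cbfb. The 3 windows below are 30 bases each, with the shared tandem in capitals.
Runx1 distal, chr16:92826025-92826054, minus strand: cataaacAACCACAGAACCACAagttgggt
Runx2, chr17:44814583-44814612, minus strand: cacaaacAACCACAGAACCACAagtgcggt
Runx3 distal, chr4:135120503-135120532, plus strand: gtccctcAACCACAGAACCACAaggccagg

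The tandem holds 2 copies of ACCACA, the reverse complement of TGTGGT. Searched on both strands, it was found in 4 of 32851 promoters of that length (0.0122%): the 3 above, and Gm16225, whose window overlaps that of Runx3 on the other strand. It lay 28 to 42 bases after the annotated start in Runx1 and 23 to 37 bases after it in Runx2. In Runx3 it lay before the start, with its 2 copies of ACCACA beginning at -134 and -126. TGTGGT alone was in 16.8% of all promoters, TGCGGT in 6.45%, and either in 22.4%. Neither was in the proximal promoters of Runx1 and Runx3 or in that of Cbfb. The 250 bases before the 2 Runx3 starts are given for comparison, with ACCACA in capitals.
Runx3 distal, chr4:135120395-135120644, plus strand: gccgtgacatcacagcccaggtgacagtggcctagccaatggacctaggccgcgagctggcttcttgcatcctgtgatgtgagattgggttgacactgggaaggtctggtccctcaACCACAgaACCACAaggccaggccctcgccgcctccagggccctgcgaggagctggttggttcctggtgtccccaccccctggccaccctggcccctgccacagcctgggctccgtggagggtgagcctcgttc
Runx3 proximal, chr4:135152295-135152544, plus strand: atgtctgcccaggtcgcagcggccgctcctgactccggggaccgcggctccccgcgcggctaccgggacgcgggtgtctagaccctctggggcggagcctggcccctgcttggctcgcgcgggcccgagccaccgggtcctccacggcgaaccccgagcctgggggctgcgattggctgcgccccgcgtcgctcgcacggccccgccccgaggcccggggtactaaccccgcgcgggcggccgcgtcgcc

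The proximal and distal promoters also differed in base composition. Over the 300 bases, GC content was 45.0% in the distal and 69.0% in the proximal promoter of Runx1, and 63.7% and 77.3% in those of Runx3. Runx2 had 45.3% and Cbfb 69.7%, and the median of all promoters was 52.7%. A motif match here is a description of the letters and not evidence of binding.

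Reads in peaks ran from 5638413 to 16159054 in the aged libraries and from 6589023 to 29942755 in the young, with 16699 to 93536 of them in the 96 member peaks. All 7 CD8 T cell marker loci had peaks, with a summed value of 19348 to 24226 normalized reads per library. Of the markers of other cells given here, peaks were found at 1 of 3 B cell loci (Pax5, 280 to 672 normalized reads; none at Cd79a or Ms4a1), 2 of 4 myeloid loci (1145 to 1866; none at Csf1r or Lyz2), 4 of 6 melanoma loci (913 to 1633; none at Tyr or Dct) and 2 of 3 loci of other T cells (1027 to 1760; none at Foxp3). A sorted pool gives a sum over cells, so fewer cells with an open site and less accessibility per cell cannot be told apart.

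The Runx loci were among the most accessible of the genome by total value. Summing normalized reads over a gene's peaks, Runx2 ranked 2 to 6 of 15017 genes across the 48 libraries, Runx3 8 to 14, Runx1 33 to 97 and Cbfb 4713 to 8528. A total grows with the number and width of peaks as well as with their height, so these ranks describe loci and not expression. Member peaks had a median of 246 normalized reads, against 93.9 for all peaks, and 20 of the 96 were at or over the 90th percentile while 18 were under the 25th.

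**Figure D1:**
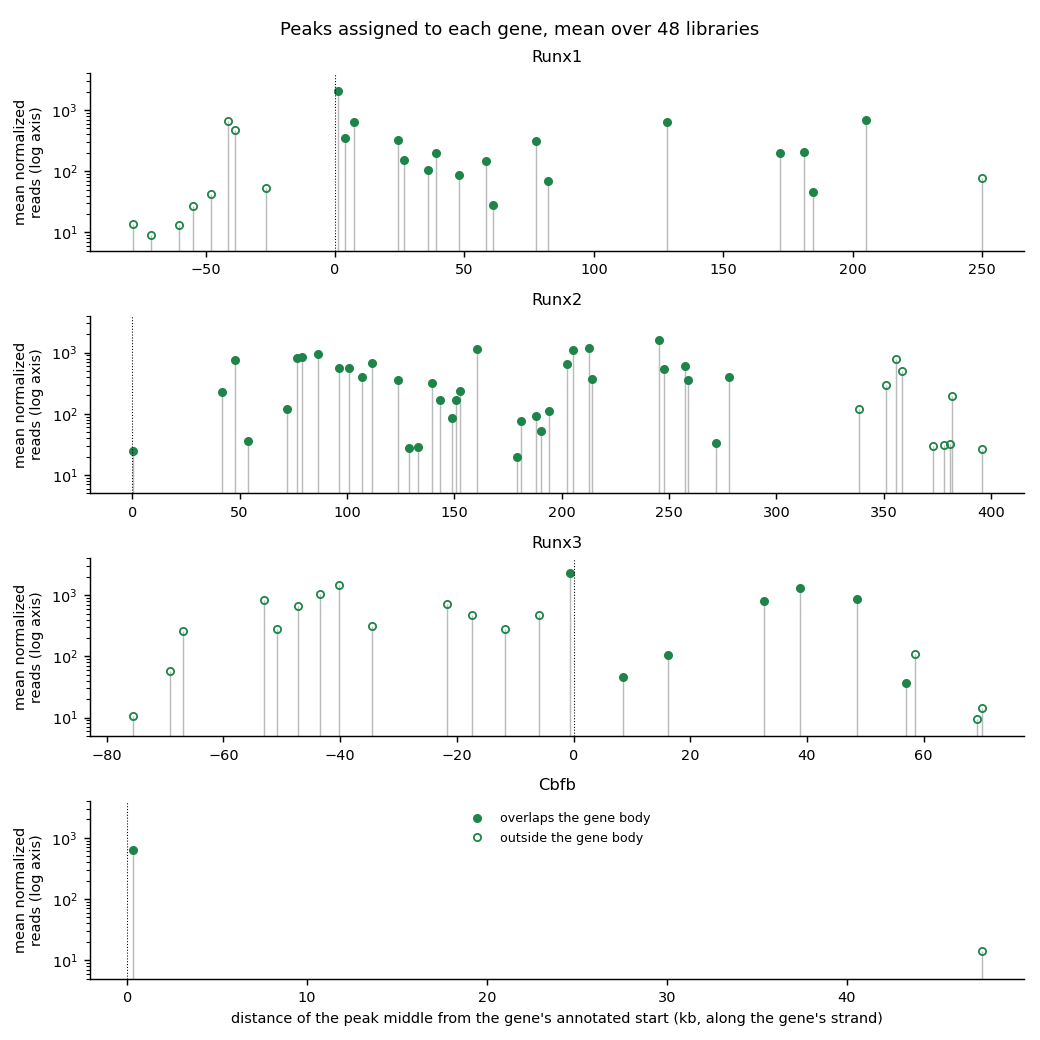
Mean normalized reads of each assigned peak over 48 libraries (log axis) against the distance of the peak middle from the gene's annotated start, in kb along the gene's strand; filled points overlap the gene body. The highest points of Runx1 and Runx3 stand at the distal start, whereas the Runx2 start holds a peak with group means of 16.3 to 36.9 and its highest peak lies 245 kb into the locus.

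The strongest peak of Runx3 covered its distal promoter (chr4:135118721-135121521) with a mean of 2301 normalized reads, and the strongest of Runx1 covered its distal promoter (chr16:92823708-92826496) with 2028. The proximal promoters were less accessible, at 815 for Runx3 (chr4:135151941-135154582) and 628 for Runx1 (chr16:92696624-92699015). For Runx2 only 1 promoter was annotated in the source used, and it holds the tandem found in the distal promoters of Runx1 and Runx3. A proximal promoter of Runx2 was therefore not assessed. The peak on the annotated Runx2 promoter (chr17:44814309-44814939) had group means of 16.3 to 36.9, and values from 10.1 to 45.3 over the 48 libraries. The strongest Runx2 peak (chr17:44568812-44570033, mean 1588) lay in the gene body 245 kb from the start. The Cbfb promoter peak (chr8:105169992-105171955) had a mean of 622, and its other peak, 47.5 kb from the start, had 14.3. Peak coordinates are those of the deposited table, with GRCm38 gene bodies.

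Across the 21 groups each locus varied by less than 1 doubling in total, and each in its own order. The Runx2 total was highest in the 4 aged OTC groups, from 19567 ± 219 (SD, n = 2) in Tprog to 21540 ± 132 in Ttran, with the next group, young Dusp5 Ttran, at 18354 ± 333 (SD, n = 3). The lowest was young Zfp219 Tprog at 15781 ± 97. Runx3 was highest in aged OTC Tterm (15762 ± 9) and Ttran (15213 ± 258) and lowest in aged Zfp219 Tprog (10652 ± 85). Runx1 was highest in young OTC Ttran (8903 ± 27, n = 3) and lowest in aged Dusp5 Tprog (6307 ± 62). Cbfb ran from 516 ± 146 to 771 ± 13. Many neighbours in these orders had overlapping libraries: 12 of 20 neighbouring pairs of groups for Runx1, 16 for Runx2, 14 for Runx3 and 19 for Cbfb.

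**Figure D2:**
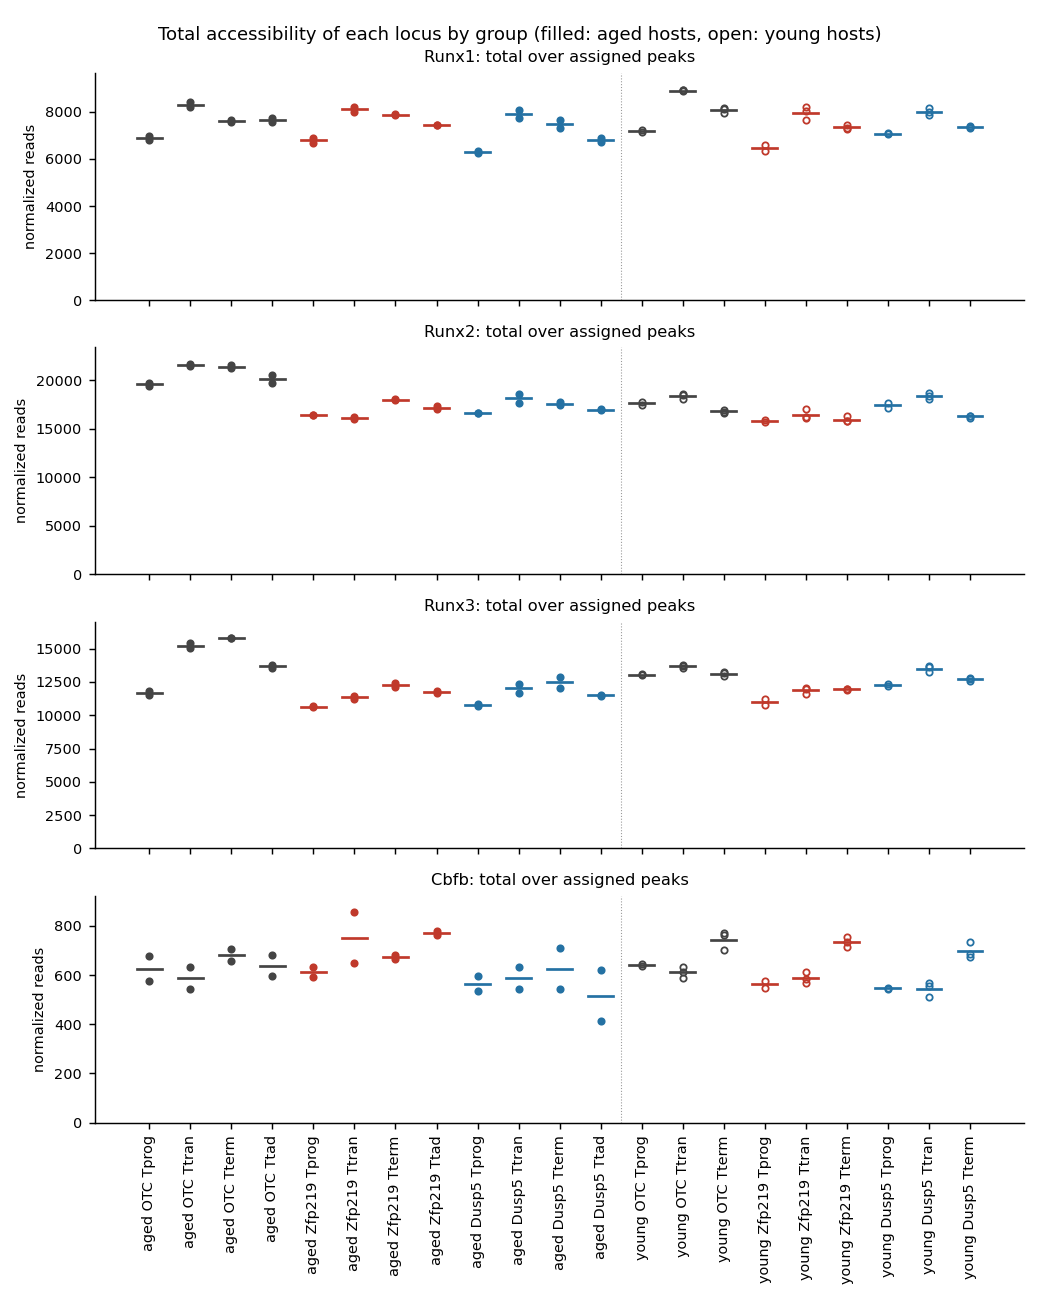
Sum of normalized reads over the peaks of each gene in every library (points) with the group mean (bar), for the 21 groups; filled points are aged hosts, open points young hosts, black OTC, red Zfp219 and blue Dusp5. The aged OTC groups stand above all others for Runx2, and aged OTC Ttran and Tterm stand above all others for Runx3.

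The state comparison asked how the loci differ between the progenitor-labelled and the terminal-labelled cells within OTC controls. In aged hosts the Runx3 locus was less accessible in Tprog. Its total was 11514 and 11786 normalized reads in the 2 Tprog libraries, 13765 and 13548 in Ttad, 15030 and 15395 in Ttran, and 15768 and 15755 in Tterm. No Tprog library reached any library of the other 3 states. The difference of Tprog against Tterm was -0.44 ± 0.03 on the log2 scale (SE; limma adjusted p = 7.7e-31), Ttad was 0.23 ± 0.03 above Tprog (adjusted p = 5.9e-12) and 0.21 below Tterm (log2 -0.21 ± 0.03, adjusted p = 2.3e-10). In young hosts the Runx3 totals were 12983 and 13074 in Tprog and 13268, 12912 and 13177 in Tterm, which overlapped, and the difference of -0.01 ± 0.02 was not called (adjusted p = 0.79). The state difference itself differed between the ages by -0.43 ± 0.04 (adjusted p = 3.2e-19). Of all 15017 gene totals, 25% were called between aged Tprog and Tterm, 11.2% between Ttad and Tprog, 12.1% between Ttad and Tterm, 34.6% between young Tprog and Tterm, and 8.74% for the difference between ages. When gene totals were quantile normalized, an alternative added after seeing the data, the difference between ages was -0.12 and no longer called, and Ttad and Tterm had the same value (0). In that setting a gene's rank alone sets its value. Runx3 ranked 8 to 14 and Runx2 2 to 6 of 15017 genes, so few values were possible for them. Lost calls or reversals of these 2 loci there cannot decide whether a difference holds.

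The same was examined peak by peak. In aged OTC cells 10 of 23 Runx3 peaks were lower in Tprog than in Tterm and 0 were higher (11.2% and 8.88% of all peaks), whereas in young OTC cells 5 were lower and 3 higher (12.6% and 13.9%). The distal promoter peak had 2224 and 2129 normalized reads in aged Tprog and 2739 and 2959 in aged Tterm, a log2 difference of -0.39 ± 0.06 (adjusted p = 2.7e-07). In young hosts it ran the other way, with 2630 and 2628 in Tprog against 2232, 2084 and 2291 in Tterm (0.26 ± 0.06, adjusted p = 0.00014). Neither pair of groups overlapped, and the difference between the ages was -0.64 ± 0.08 (adjusted p = 1.5e-08). The proximal promoter peak was not called in either age.

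**Figure D3:**
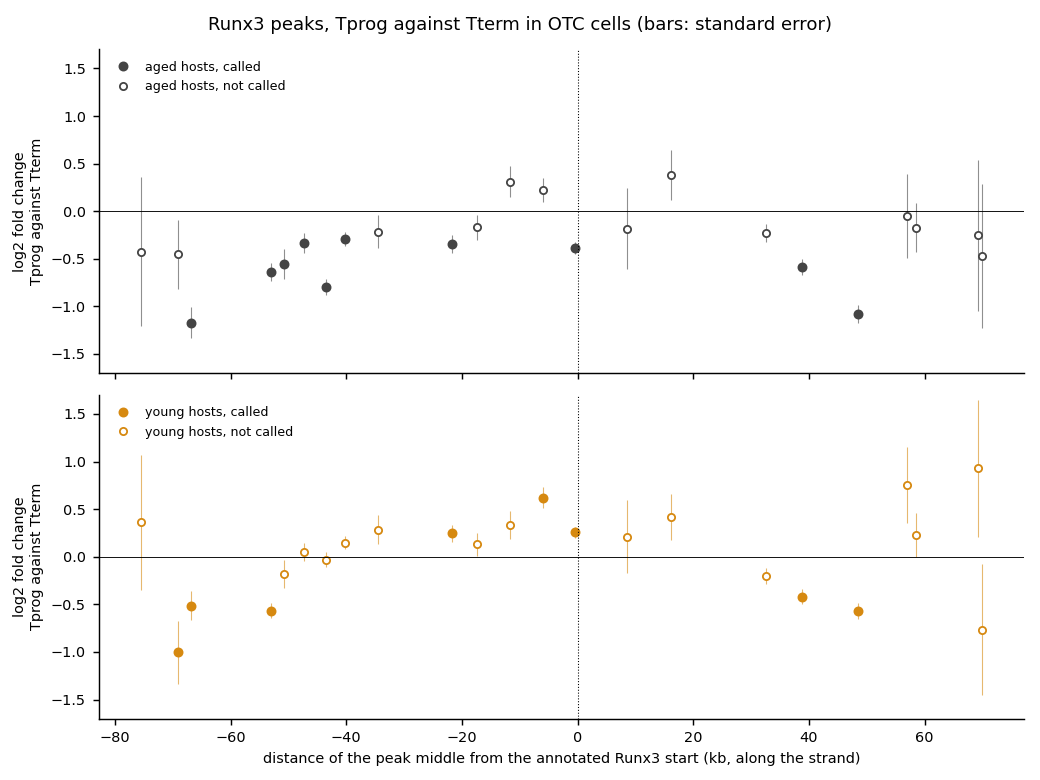
Log2 fold change (with standard error) of each Runx3 peak in OTC cells, Tprog against Tterm, in aged hosts (top) and young hosts (bottom), against distance from the annotated start in kb; filled points were called. In aged hosts the called points all lie below 0, and in young hosts the point at the start lies above it.

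Upstream of Runx3 the largest called age-dependent state difference was at chr4:135076694-135077635, -43.5 kb from the start. Aged Tprog libraries had 835.6 and 916.5 normalized reads there, Ttad 1320 and 1127, Tterm 1518 and 1523, and Ttran 1417 and 1527, so the order was that of the locus total. Young Tprog (1030 and 1034) and young Tterm (1057, 1076 and 1026) overlapped. The state difference was -0.80 ± 0.09 in aged hosts (adjusted p = 2.6e-12) and -0.03 in young, and the ages differed by -0.77 ± 0.12 (adjusted p = 3.6e-06). It was called in the same direction without any 1 library.

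Another Runx3 peak was lower in Tprog in both ages. The peak at chr4:135168417-135169906, in the gene body 48.5 kb after the start, had 631 and 659 normalized reads in aged OTC Tprog, 1192 and 1140 in Ttad, 1208 and 1294 in Ttran and 1501 and 1241 in Tterm. Tprog stood apart from every other state. Ttad exceeded Tprog by 0.85 ± 0.10 (adjusted p = 2.6e-10), and Tprog was below Tterm by a log2 difference of -1.08 ± 0.10 (adjusted p = 3.4e-16). In young OTC cells the libraries were at 752 and 689 in Tprog and 1036, 1077 and 1093 in Tterm (-0.57 ± 0.09, adjusted p = 1.4e-07). The ages differed here too, by -0.51 ± 0.13 (adjusted p = 0.014), a call lost without aged OTC Tprog library 1 (-0.48), aged OTC Tterm library 1 (-0.37) or young OTC Tprog library 1 (-0.45). Tprog against Tterm was called lower at this peak in Zfp219 and Dusp5 cells of both ages too, from -0.70 ± 0.10 in aged Zfp219 to -1.10 ± 0.10 in aged Dusp5 (18.8% and 22.9% of all peaks called). A neighbouring peak at 38.9 kb, singled out after its values were seen, was lower in Tprog by -0.58 in aged and -0.42 in young OTC cells.

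**Figure D4:**
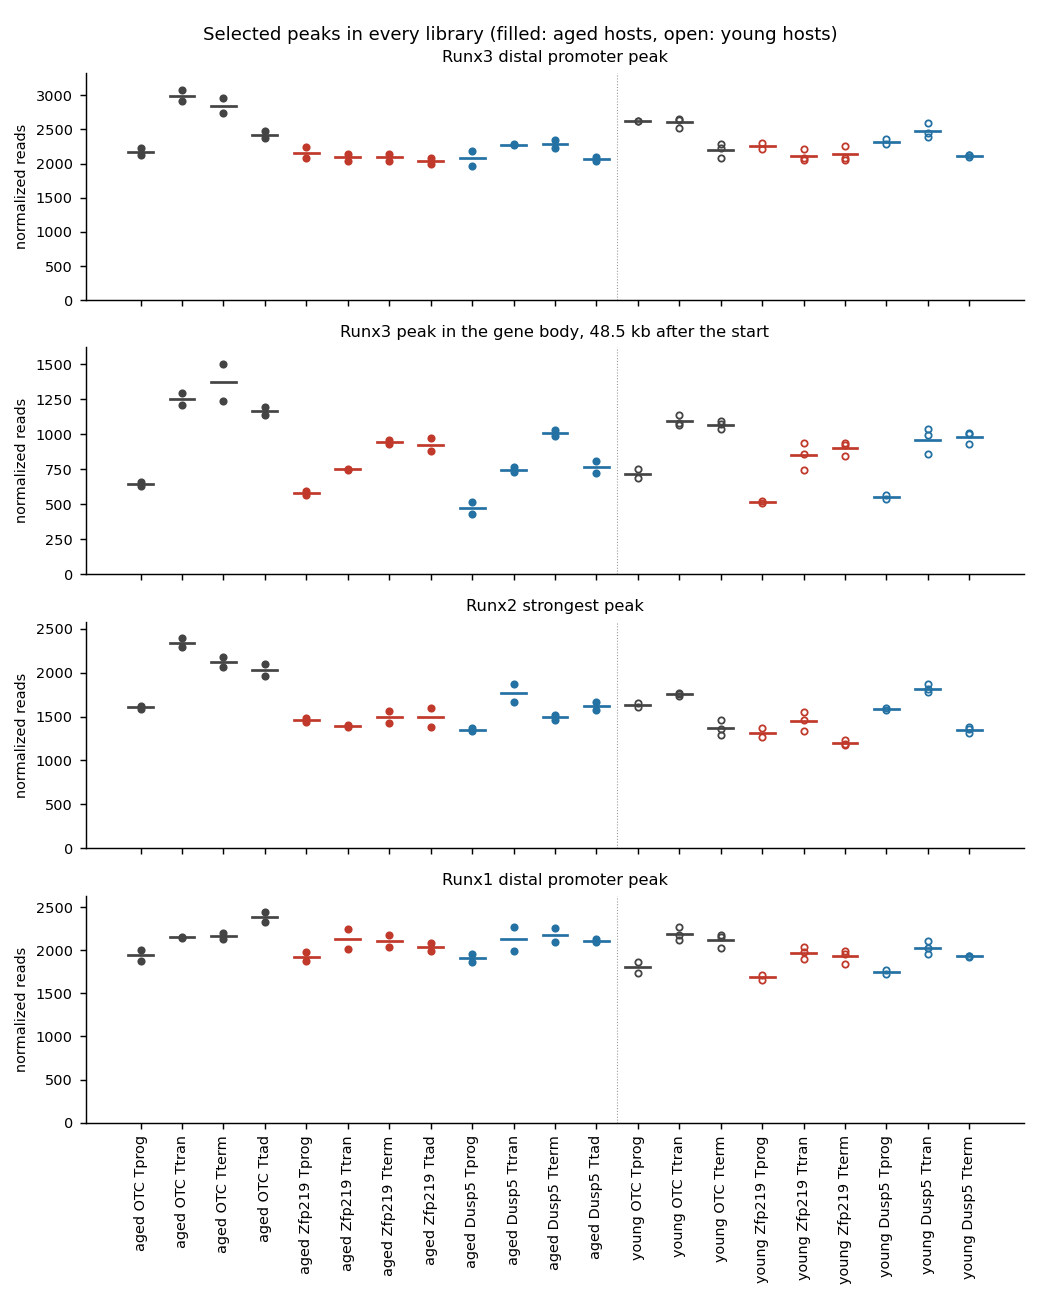
Normalized reads in every library (points) with the group mean (bar) at 4 peaks: the Runx3 distal promoter, the Runx3 peak 48.5 kb after the start, the strongest Runx2 peak and the Runx1 distal promoter; filled points are aged hosts, open points young hosts, black OTC, red Zfp219 and blue Dusp5. Tprog groups are lowest at the Runx3 peak in the gene body within each host age and guide.

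Runx1 was lower in Tprog than in Tterm in both ages when summed over the locus. Its OTC totals were 6955 and 6807 in aged Tprog against 7573 and 7671 in aged Tterm (log2 -0.15 ± 0.03, adjusted p = 0.00011), and 7145 and 7218 in young Tprog against 8142, 7954 and 8155 in young Tterm (-0.17 ± 0.03, adjusted p = 6.3e-07). The ages did not differ detectably in this (0.02 ± 0.04, adjusted p = 0.82). Ttran was the highest OTC state for Runx1 in both ages, above Tprog by 0.27 ± 0.03 in aged hosts (adjusted p = 4.2e-12) and 0.31 ± 0.03 in young hosts (adjusted p = 6.0e-17); 23.8% and 21.4% of gene totals were called there. The aged Tprog difference was -0.07 and not called after quantile normalization of the peaks, and turned to 0.0047 after that of the gene totals; the aged Ttran difference was 0.08 and not called after the latter.

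Peak by peak, Runx1 moved in both directions. Of its 26 peaks, 2 were higher and 3 lower in aged Tprog than Tterm, or 19.2% called against 20.1% of all peaks. In the young comparison 6 were higher and 8 lower, or 53.8% against 26.5% (13.9% higher and 12.6% lower). The proximal promoter peak was the main point of difference between the ages. It had 491 and 471 normalized reads in young Tprog against 856, 817 and 870 in young Tterm (-0.82 ± 0.10, adjusted p = 4.2e-10), while aged Tprog (481 and 512) and aged Tterm (550 and 562) differed by -0.16, which was not called. The difference between the ages was 0.65 ± 0.15 (adjusted p = 0.0063), and it fell to 0.61 (adjusted p = 0.051) without aged OTC Tprog library 2. A weaker peak in the body, chr16:92743634-92744168, was higher in young Tprog (125 and 113) than in young Tterm (48.7, 39.3 and 27.0), by 1.65 ± 0.32 (adjusted p = 1.9e-05).

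The distal promoter peak of Runx1 was lower in Tprog in some comparisons of states. Aged OTC libraries had 2004 and 1881 normalized reads in Tprog, 2332 and 2439 in Ttad, 2131 and 2197 in Tterm, and 2160 and 2146 in Ttran. Ttad held the highest group mean of all 21 and exceeded Tprog by 0.30 ± 0.06 (adjusted p = 0.00095). In young OTC cells Tprog (1742 and 1863) was below Tterm (2153, 2024 and 2177) by -0.23 ± 0.06 (adjusted p = 0.0012). An upstream peak at chr16:92880436-92881114 had 10.8 and 5.13 in young Tprog against 48.03, 29.1 and 37.7 in young Tterm (-2.18 ± 0.52, adjusted p = 0.00061), a call that was lost without young OTC Tprog library 2 (-1.71, adjusted p = 0.055).

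Runx2 ran opposite ways with state in the 2 host ages. Its OTC totals were 19722 and 19412 in aged Tprog against 21199 and 21543 in aged Tterm (log2 -0.13 ± 0.02, adjusted p = 2.6e-06), and 17449 and 17750 in young Tprog against 16944, 16747 and 16616 in young Tterm (0.07 ± 0.02, adjusted p = 0.0053). The young call was lost without young OTC Tprog library 2 (0.06). The difference between the ages was -0.20 ± 0.03 (adjusted p = 7.0e-07). The aged difference was -0.04 and not called after quantile normalization of the peaks, and 0 after that of the gene totals, where the difference between ages was -0.10 and not called either. Of the 45 peaks, 2 were higher and 7 lower in aged Tprog than Tterm, a count of 9 that is near the 20.1% called over all peaks. In young hosts 10 were higher and 6 lower, or 35.6% against 26.5% of all peaks (13.9% higher and 12.6% lower).

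The strongest Runx2 peak showed this crossing by itself. It had 1591 and 1620 normalized reads in aged OTC Tprog, 1957 and 2096 in Ttad, 2061 and 2172 in Tterm and 2389 and 2289 in Ttran. In young OTC cells it had 1656 and 1610 in Tprog, 1464, 1285 and 1354 in Tterm, and 1760, 1736 and 1771 in Ttran. Aged Tprog was below aged Tterm (-0.40 ± 0.07, adjusted p = 6.7e-06) and young Tprog above young Tterm (0.26 ± 0.07, adjusted p = 0.0013), with a difference between the ages of -0.66 ± 0.10 (adjusted p = 1.2e-06). The Runx2 peak at chr17:44555090-44556485 was higher in young Tprog (544 and 460) than in young Ttran (271, 303 and 326) by a log2 difference of Ttran against Tprog of -0.74 ± 0.14 (adjusted p = 1.7e-05).

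Sums at marker loci of other cells moved with state in the same libraries. Pax5 had 514 to 523 normalized reads in aged OTC Tprog against 285 to 337 in Tterm, and 516 to 589 against 280 to 309 in young. The sum for other T cells (Cd4 and Zbtb7b, which RUNX proteins also regulate) was lower in Tprog, at 1233 to 1263 against 1707 to 1733 in aged and 1290 to 1472 against 1714 to 1760 in young hosts. The melanoma sum was higher in Tprog in both ages (1344 to 1382 against 1248 to 1256, and 1568 to 1633 against 1269 to 1328), whereas the myeloid sum was lower in aged (1145 to 1172 against 1261 to 1272) and higher in young Tprog (1691 to 1720 against 1499 to 1548). None of these ranges overlapped, and their part in the state differences was not tested.

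Over all 96 member peaks, 24 were called between Tprog and Tterm in aged OTC cells (20.1% of all peaks were) and 38 in young OTC cells (26.5%). For the aged comparison, 15 were called without aged OTC Tterm library 1. The age difference of the state difference was called at 10 member peaks, 1 higher and 9 lower (3 and 4 after quantile normalization), against 2.32% of all peaks (0.512% higher, 1.81% lower), and at 5 without aged OTC Tprog library 1. The median log2 difference of the 96 in aged OTC cells was -0.23, against 0.01 over all peaks, and in young OTC cells it was -0.07, also against 0.01. Member peaks were stronger than most, and the shares over all peaks depend on strength. With the weakest 25% of peaks left out, 78 members stayed. Of these, 26 were called in aged (25.3% of all peaks left) and 36 in young OTC cells (32.1%).

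Ttran was compared with both other OTC states. Against Tprog, 23 member peaks were called in aged (21 higher, 2 lower; 17% of all peaks, 9.99% higher and 6.98% lower) and 27 in young OTC cells (21 higher, 6 lower; 16.9%, 9.07% higher and 7.82% lower). Against Tterm, 1 was called in aged cells, lower (3.22%, 1.87% higher and 1.35% lower), and 12 in young (10 higher, 2 lower; 8.38%, 5.02% higher and 3.36% lower). The aged call was at Runx3, chr4:135051278-135051768, and was lost without any 1 of the 4 libraries compared. The young count was 6 or 7 without OTC Tterm library 2 or 3 or OTC Ttran library 1 or 2. Among the young calls, the Runx2 peak at chr17:44566437-44567457 had 548, 560 and 583 in Ttran against 393, 409 and 408 in Tterm (0.48 ± 0.10, adjusted p = 0.00027).

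Ttad, the state negative for both sorting markers, lay between Tprog and Tterm at Runx3 and showed no called difference from Tterm in the Runx1 total. Against Tterm 9 member peaks were called (1 higher, 8 lower; 7.28% of all peaks, 3.02% higher and 4.26% lower), and against Tprog 10 (8 higher, 2 lower; 6.55%, 3.82% higher and 2.73% lower). Runx3 held 4 of the first set, all lower, and 5 of the second, all higher. The Runx1 total did not differ detectably from Tterm (0.00 ± 0.03, adjusted p = 0.97) and exceeded Tprog by 0.15 ± 0.03 (adjusted p = 0.00029). The first count was 4, 5 and 4 without aged OTC Ttad library 1, Tterm library 1 and Tterm library 2, and the second was 5 without aged OTC Tprog library 2. The largest fold in each set that went down rested on few reads and was lost without any 1 of the libraries compared: Runx3 chr4:135044958-135045242 against Tterm, with 1.68 and 2.46 normalized reads in Ttad, and Runx2 chr17:44441558-44442229 against Tprog, with 10.1 and 8.62.

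Host age was compared in OTC cells over Tprog, Ttran and Tterm, the states both ages have. Runx2 was more accessible in aged hosts and Runx1 slightly less, while Runx3 was lower in aged Tprog and higher in aged Ttran and Tterm. The mean log2 difference of the totals was 0.24 ± 0.01 for Runx2 (adjusted p = 1.7e-37), 0.09 ± 0.01 for Runx3 (adjusted p = 1.7e-07), -0.08 ± 0.02 for Runx1 (adjusted p = 3.8e-05) and -0.08 ± 0.06 for Cbfb (adjusted p = 0.35). Every aged OTC library had a higher Runx2 total than every young OTC library, 19412 being the lowest aged and 18528 the highest young value. Of all 15017 gene totals, 43.0% were called in this comparison. For Runx3 this mean joins opposite directions: the total differed by -0.16 ± 0.03 in Tprog (adjusted p = 3.5e-07), 0.15 ± 0.02 in Ttran (adjusted p = 8.3e-08) and 0.26 ± 0.02 in Tterm (adjusted p = 3.7e-18), where 23.8%, 26.3% and 26.2% of gene totals were called, and the ages did not overlap in any of the 3 states. After quantile normalization of the gene totals the Ttran (0.04) and Tterm (0.02) differences were not called. Under it the Runx2 difference was 0.03 and not called and that of Runx3 turned to -0.01; after that of the peaks both were called in the same direction.

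The Runx2 difference was spread over the locus. Of the 45 peaks, 24 were higher in aged hosts and 1 lower, against 17.3% higher and 19.1% lower over all peaks. The called peaks ran from 47.998 to 358 kb after the start, 22 of them in the gene body and 2 beyond its end. The peak on the annotated promoter was not called. By state, 8 were higher and 1 lower in Tprog, 15 higher in Ttran and 17 higher in Tterm, with backgrounds of 15.4%, 18.3% and 18.9% of peaks called. The largest called fold was at a weak peak, chr17:44542841-44543398. It had 69.7 and 72.4 normalized reads in aged Tterm against 20.2, 15.7 and 23.1 in young Tterm, and 108 and 113 in aged Ttran against 30.0, 40.7 and 39.1 in young Ttran. In those states the ages did not overlap, and over the 3 states the difference was 1.32 ± 0.29 (adjusted p = 0.00016).

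**Figure D5:**
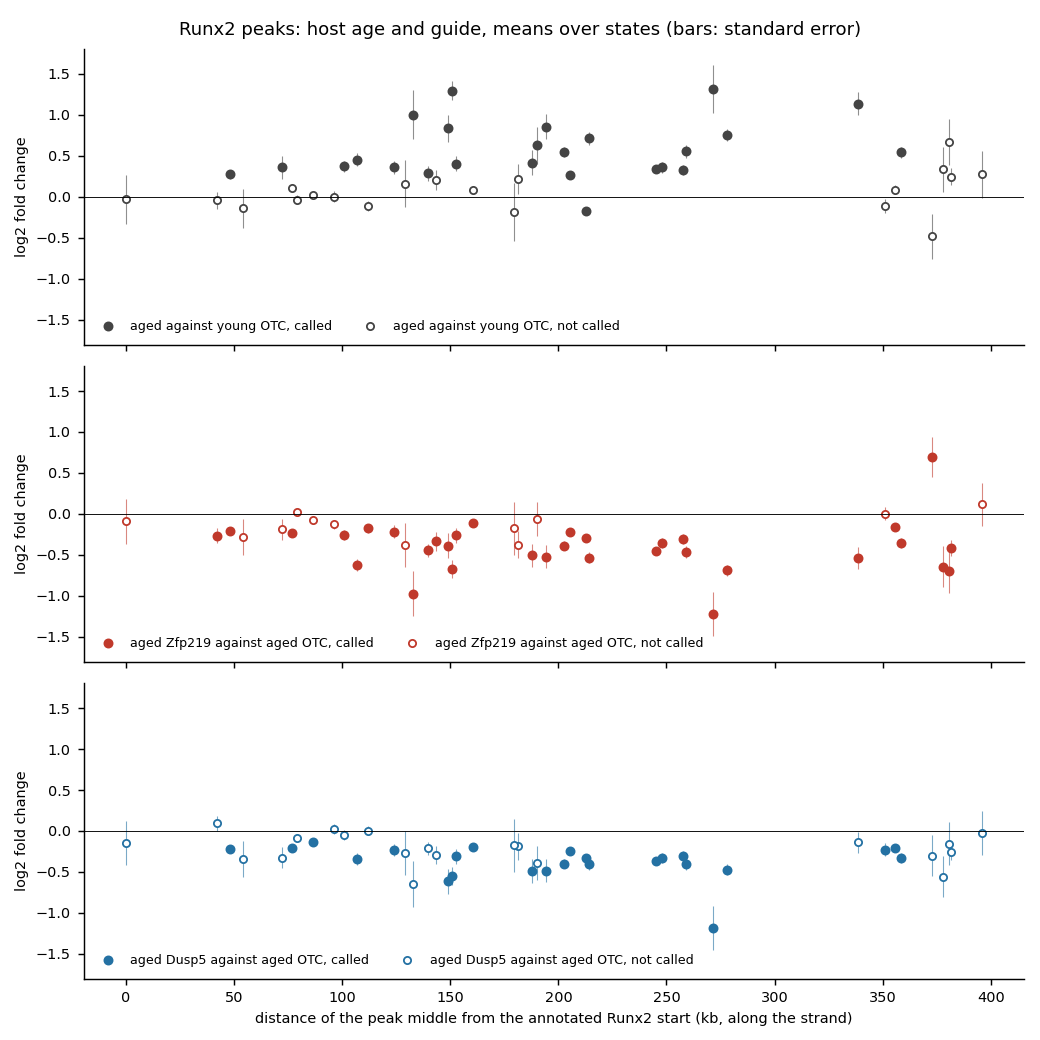
Log2 fold change (with standard error) of each Runx2 peak against distance from the annotated start in kb: aged against young OTC, mean of 3 states (top), aged Zfp219 against aged OTC (middle) and aged Dusp5 against aged OTC (bottom), both means of 4 states; filled points were called. The called points lie mostly above 0 in the top panel and below 0 in the lower panels, all of which share the aged OTC libraries.

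At Runx3, 6 peaks were higher and 4 lower in aged hosts (17.3% and 19.1% of all peaks; 43.5% of Runx3 peaks called against 36.5%). In the distal promoter peak the direction depended on state: aged against young was -0.27 ± 0.06 in Tprog (adjusted p = 0.00055), 0.20 ± 0.06 in Ttran (adjusted p = 0.0058) and 0.37 ± 0.06 in Tterm (adjusted p = 1.0e-07). After quantile normalization of the peaks the first 2 were not called (-0.16 and 0.08), and the Ttran call was lost without aged OTC Ttran library 2 (0.16). At Runx1, 5 peaks were higher and 10 lower, or 57.7% called. The 3 called peaks upstream of its start, from -41.4 to -26.5 kb, were all higher in aged hosts, while in the gene body apart from the promoters 2 were higher and 8 lower. The proximal promoter was lower (-0.28 ± 0.06, adjusted p = 0.00014) and the distal promoter did not differ detectably (0.04).

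The largest called Runx1 fall was at chr16:92641103-92641471, in the body 185 kb from the start. It had 22.7 and 62.1 normalized reads in aged Tprog, 28.6 and 35.1 in aged Ttran and 9.81 and 21.99 in aged Tterm. The young libraries had 96.0 and 141 in Tprog, 41.5, 50.8 and 68.6 in Ttran, and 44.9, 51.1 and 37.7 in Tterm. Within each state no aged library reached a young one, and the difference was -1.28 ± 0.26 (adjusted p = 3.2e-05).

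Over all members 50 of 96 peaks were called with age, 35 higher and 15 lower (36.5% of all peaks). The sample numbers in the deposited column headers start anew for aged and for young libraries, so whatever that numbering marks cannot be told apart from age. The myeloid marker sum was 1145 to 1412 in aged and 1387 to 1866 normalized reads in young libraries, and the melanoma sum was 913 to 1498 and 1193 to 1633. Their part in the age differences was not tested. In cells with the other guides the age difference of Runx2 was smaller: 0.07 ± 0.01 in Zfp219 cells (adjusted p = 6.4e-06) and 0.01 ± 0.01 in Dusp5 cells (adjusted p = 0.61), with 40.1% and 39.3% of gene totals called. After quantile normalization of the gene totals these were -0.02, not called, and -0.08, called lower.

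The Zfp219 guide was compared with OTC within each host age. Zfp219 encodes a zinc finger protein. In aged hosts, over the 4 states, Runx2 and Runx3 were less accessible in Zfp219 cells, with log2 differences of the totals of -0.29 ± 0.01 (adjusted p = 1.3e-47) and -0.28 ± 0.01 (adjusted p = 3.8e-41). Runx1 was not called (-0.01 ± 0.02, adjusted p = 0.64; 0.14 after quantile normalization of the gene totals). Cbfb was called higher (0.15 ± 0.06, adjusted p = 0.039), at 593 to 855 normalized reads in the 8 Zfp219 libraries against 542 to 707 in the 8 OTC libraries, which overlap. That call was lost in 10 of the fits that left out 1 library, with values of 0.10 to 0.15. In young hosts all 3 Runx totals were lower: -0.13 ± 0.01 for Runx2 (adjusted p = 1.3e-17), -0.20 ± 0.01 for Runx3 (adjusted p = 1.2e-25) and -0.15 ± 0.02 for Runx1 (adjusted p = 2.1e-13). Of all gene totals 36.8% were called in aged and 14.7% in young hosts. The young Runx3 difference was -0.03 and not called after quantile normalization of the gene totals.

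At peak level, 53 of the 96 members were called in aged Zfp219 cells, 48 of them lower, and 23 in young, all lower. Over all peaks 13.7% were lower in the aged and 5.15% in the young comparison, 12.1% and 1.92% higher, and 25.8% and 7.07% called in either direction. By locus, 32 of 45 Runx2 peaks and 13 of 23 Runx3 peaks were lower in aged Zfp219 cells, against 3 of 26 at Runx1, where 4 were higher. The strongest Runx2 peak had 1385 and 1409 normalized reads in aged Zfp219 Ttran against 2389 and 2289 in aged OTC Ttran (-0.74 ± 0.07, adjusted p = 5.2e-14; 14.2% of all peaks were called). The Runx3 distal promoter peak had 2141 and 2040 against 2911 and 3077 in the same state (-0.52 ± 0.06, adjusted p = 1.3e-10). Neither peak was called between aged Zfp219 and aged OTC Tprog. Single states were outside the 16 planned comparisons, and Ttran had the largest Runx2 fall. The median log2 difference of the 45 Runx2 peaks was -0.43 in Ttran, -0.29 in Tprog, -0.24 in Tterm and -0.26 in Ttad. For the 23 Runx3 peaks it was -0.26, -0.16, -0.44 and -0.08 in the same order.

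The Runx1 peak at chr16:92641103-92641471 went against this. It rose in aged Zfp219 cells by 1.24 ± 0.24 (adjusted p = 2.4e-05), with 70.4 and 65.7 normalized reads in Ttad against 16.8 and 22.2 in OTC, and 42.2 and 49.7 in Tterm against 9.81 and 21.99. In aged Tprog alone it was not called. In young hosts the guide did not move it detectably (-0.29), and the ages differed by 1.35 ± 0.37 (adjusted p = 0.0091). The aged OTC libraries enter this rise, this difference and the fall with age at the same peak. At the weak Runx2 peak chr17:44542841-44543398 the guide difference was -1.22 ± 0.27 in aged (adjusted p = 0.00024) and -1.14 ± 0.27 in young hosts (adjusted p = 0.0033), the latter lost without young Zfp219 Tprog library 2 (-0.71, adjusted p = 0.13).

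The share of normalized reads that fell in promoter peaks over the whole table was 42.1% to 44.0% in aged Zfp219 libraries and 40.0% to 41.8% in aged OTC libraries, which do not overlap. In young hosts the ranges were 40.0% to 42.2% and 39.8% to 42.4%. The part of this share in the aged Zfp219 results was not tested. The CD8 T cell marker sum was lower in young Zfp219 than in young OTC libraries of each state, without overlap. It was 22050 to 22396 against 24101 to 24226 in Tprog, 20739 to 20985 against 22037 to 22359 in Ttran, and 19578 to 20285 against 21662 to 22155 in Tterm. In aged hosts it was lower in Ttran and Tterm and overlapped in Tprog and Ttad. The part of this sum in the Zfp219 results was not tested either.

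Dusp5 encodes a phosphatase that acts on ERK in the nucleus. In aged hosts the Dusp5 guide went with lower totals at all 4 loci: -0.25 ± 0.01 for Runx2 (adjusted p = 1.2e-41), -0.26 ± 0.01 for Runx3 (adjusted p = 2.6e-37), -0.10 ± 0.02 for Runx1 (adjusted p = 3.4e-07) and -0.15 ± 0.06 for Cbfb (adjusted p = 0.046). The Cbfb call was lost in 8 of the fits that left out 1 library, with values from -0.14 to -0.08. In young hosts Runx2 was not called (-0.02 ± 0.01, adjusted p = 0.30), and Runx3 (-0.05 ± 0.01, adjusted p = 0.0073) and Runx1 (-0.10 ± 0.02, adjusted p = 8.3e-07) were slightly lower. Of all gene totals 20.6% were called in aged and 9.23% in young hosts. The CD8 T cell marker sum was also lower in aged Dusp5 than in aged OTC libraries of the same state, without overlap. Dusp5 had 20094 to 21339 against 21703 to 22522 in Tprog and 19760 to 20397 against 21882 to 22616 in Ttran. In Tterm it had 19351 to 20120 against 21508 to 21533, and in Ttad 19348 to 20573 against 21567 to 22208. In young hosts this sum was lower in Tprog and Tterm and overlapped in Ttran. Its part in the Dusp5 results was not tested. The aged Runx1 difference was -0.04 and not called after quantile normalization of the peaks and turned to 0.02 after that of the gene totals; the aged Cbfb difference (-0.11) and the young Runx3 difference (-0.01) were not called after the former, and the latter turned that of young Runx3 to 0.05. Zfp219 and Dusp5 cells were compared with the same OTC libraries, and those of aged hosts also entered the age comparison, so these results are not independent of each other.

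In aged Dusp5 cells 41 of 96 member peaks were lower and 0 higher (7.87% and 4.35% of all peaks, 12.2% in either direction), 24 of them at Runx2, 12 at Runx3 and 5 at Runx1. In young Dusp5 cells 3 were higher and 4 lower (1.8% and 2.02% of all peaks, 3.82% in either direction). The count was 3 or 4 without young Dusp5 Tterm library 1, young Dusp5 Ttran library 1 or 3, or young OTC Tprog library 2. At the Runx3 peak 48.5 kb after the start, aged Dusp5 Ttran libraries had 765 and 730 normalized reads against 1208 and 1294 in OTC Ttran, and Dusp5 Ttad 721 and 807 against 1192 and 1140. No Dusp5 library reached an OTC library in either state, and over the 4 states the difference was -0.56 ± 0.05 (adjusted p = 1.1e-15). At the Runx1 peak chr16:92821788-92822315, 4.02 kb after the start, Dusp5 cells were lower in aged (-0.39 ± 0.07, adjusted p = 4.2e-05) and young hosts (-0.28 ± 0.07, adjusted p = 0.014); the young call was lost without young Dusp5 Ttran library 3 (-0.24) or young OTC Tprog library 2 (-0.22).

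Guide effects were tested for a difference between host ages over the 3 shared states. Such a difference is the same quantity as the age difference with that guide minus the age difference in OTC cells. For the Runx2 total it therefore restates the age differences given above. For the Runx2 total the Zfp219 effect differed by -0.18 ± 0.02, aged minus young (adjusted p = 3.2e-15) and the Dusp5 effect by -0.24 ± 0.02 (adjusted p = 2.5e-22). For Runx3 these were -0.11 ± 0.02 (adjusted p = 1.3e-05) and -0.22 ± 0.02 (adjusted p = 3.7e-16). For Runx1 the Zfp219 effect differed in the other direction, 0.15 ± 0.02 (adjusted p = 1.0e-06), and the Dusp5 effect was not called (0.03 ± 0.02, adjusted p = 0.58; 0.12 and called after quantile normalization of the gene totals, where the Runx2 Zfp219 difference was -0.05 and not called). Of all gene totals 16.4% were called for Zfp219 and 8.39% for Dusp5. At peak level 18 members were called for Zfp219, 6 higher and 12 lower (9.11% of all peaks, 4.09% higher and 5.01% lower), and 20 for Dusp5, all lower (4% of all peaks, 1.27% higher and 2.73% lower). The Dusp5 count was 13 without aged Dusp5 Ttran library 2. The 6 higher Zfp219 differences were all at Runx1.

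Cbfb, which serves all 3 RUNX proteins, had few calls. Neither of its peaks was called in any of the 16 planned comparisons. In other comparisons its promoter peak was called lower in young Tprog than Tterm with both targeting guides (26.8% of all peaks were called in Zfp219 and 29.8% in Dusp5 cells): 561 and 539 normalized reads against 752, 723 and 711 in Zfp219 cells (-0.40 ± 0.11, adjusted p = 0.0027), and 541 and 530 against 677, 655 and 715 in Dusp5 cells (-0.35 ± 0.11, adjusted p = 0.0099). The groups did not overlap in either. In young OTC cells the values were 629 and 622 against 757, 689 and 735, a difference of -0.22 that was not called (adjusted p = 0.14). The Dusp5 call was lost without young Dusp5 Tprog library 2. Whether the guides differ in this was not tested.

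The same peak was also called lower in young Ttran than Tterm with both guides (2.15% of all peaks called in Zfp219 and 8.89% in Dusp5 cells). It had 575, 611 and 551 normalized reads in Zfp219 Ttran (-0.33 ± 0.10 against Tterm, adjusted p = 0.049) and 513, 559 and 534 in Dusp5 Ttran (-0.35 ± 0.10, adjusted p = 0.012). The first call was lost in 5 of the 6 fits that left out 1 library, and the second without young Dusp5 Tterm library 3 or Ttran library 1. One call went the other way: aged Zfp219 Ttran (627.5 and 836) against aged OTC Ttran (624 and 529) differed by 0.33 ± 0.12 (adjusted p = 0.047), a call lost without the second library of either group.

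Peaks elsewhere that followed the strongest member peaks most closely were sought over the 21 group means, as a description with no test. The Runx3 distal promoter peak was followed most closely by a peak in Sp2 (Pearson's r = 0.94), then by peaks assigned to Eif2ak3 (0.93) and Rhof (0.91). For the strongest Runx2 peak these were Hip1r (0.93), Xylt1 (0.93) and Lnx2 (0.93), for the Runx1 distal promoter Rgs3 (0.90), Mllt6 (0.90) and Fam160b1 (0.89), and for the Cbfb promoter Ing5 (0.88), Fam102a (0.88) and Serpinb6a (0.88). Group means share the libraries' depth and state, and these were the best of all peaks over 1 Mb away.

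A list of 22 RUNX partners and targets in T cells, such as Cd8a, Cd4, Zbtb7b, Gzmb, Tbx21, Tcf7, Ets1 and Tle3, had 238 peaks. Between aged OTC Tprog and Tterm 35 were higher and 64 lower (8.88% and 11.2% of all peaks), and between the young groups 47 and 57 (13.9% and 12.6%). With age 22 were higher and 71 lower (17.3% and 19.1% of all peaks), with a median log2 difference of -0.13 against 0.00 over all peaks. The members themselves had 35 higher and 15 lower in that comparison, and a median of 0.14. In aged Zfp219 cells 28 list peaks were higher and 36 lower (12.1% and 13.7% of all peaks), and in aged Dusp5 cells 7 and 31 (4.35% and 7.87%). The members had 5 and 48, and 0 and 41, in the same comparisons. Whether the members and the list differ was not tested.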

How the data were processed

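The deposited table gives, for 53868 peaks and 48 libraries, a signal that the authors normalized. Per the submitters' processing notes, the build was mm10 and the tools included Bowtie2 2.2.9, Picard 2.8.0, SAMtools 1.3.1, MACS2 2.1.1 and DESeq2 1.28.1; their settings, and any shift of insertion sites, are not given in the sources used here. In every library the deposited signal was a whole multiple of 1 step (100% of values, tolerance 0.001), and the step equals the inverse of the library's median of ratios, so values are reads divided by that factor and are called normalized reads. Peaks were tested as deposited, with coordinates as the table gives them; 51109 of 53868 were assigned to one of 21900 protein-coding genes of RefSeq (GRCm38.p6), and sequences are RefSeq's.

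The test was limma 3.58.1 (R 4.3.3; lmFit, eBayes with trend) on log2(value + 1), which understates changes of weak peaks, with all 48 libraries and a mean for each of 21 groups. Benjamini-Hochberg adjustment ran over all 53868 peaks, or all 15017 genes for totals over peaks, and called means adjusted p under 0.05. The code of the tests was run on simulated independent counts with known changes. That run does not measure how well the p-values hold for pooled libraries like these. Means over states treated libraries of different states as independent, and whether they shared mice is not given in the sources used here. Alternatives are in the closing section; edgeR 4.0.16 was run on the recovered whole reads. Peaks were named by rule: each gene's strongest peak, those on a boundary or annotated start, and the called peak with the largest change in each direction of each comparison; any other is said to have been singled out. The members and lists were chosen with earlier results of these data known. Counting error was not separated from library spread, and it weighs most at peaks of few reads. Reads carry no molecular identifiers. One marker gene is not reported here.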

Additional observations from a re-analysis of the deposited data

Results flagged for a closer look

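Effects that differed between host ages by the test of the difference itself (limma, adjusted p under 0.05) were noted for a closer look. The Tprog against Tterm difference of OTC cells differed with age at 10 of the 96 member peaks, the Zfp219 effect at 18 and the Dusp5 effect at 20, against 2.32%, 9.11% and 4% of all peaks. The largest called differences of the state effect, aged minus young on the log2 scale, were 0.65 at the Runx1 proximal promoter (chr16:92696624-92699015) and -0.77 upstream of Runx3 (chr4:135076694-135077635). For the Zfp219 effect they were 1.35 at Runx1 (chr16:92641103-92641471) and -1.42 downstream of Runx2 (chr17:44433872-44434328), where single libraries had 7.70 to 67.2 normalized reads; the latter was lost without aged Zfp219 Ttran library 2 (-1.14) or young OTC Tprog library 2 (-1.21). For the Dusp5 effect the largest called difference was -1.09 in Runx2 (chr17:44665582-44665962). With 1 value per group in place of the libraries, the Runx1 value of 1.35 had an adjusted p of 0.053 and the Runx2 value of -1.09 one of 0.055.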

How the results depend on the processing

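Of 366 member peak calls in the 16 planned comparisons, 363 held with a pseudocount of 8, 308 under quantile normalization, and none reversed. With the weakest 25% of peaks left out, 48 of 78 members were called for age (43% of all peaks left). For aged Zfp219 49 were called (33.4%). With the replicate number as a block 354 held and 12 were lost, and counts stayed within 1.5 times. Differences between libraries 1 and 2 of a group correlated between -0.0167 and 0.0146 over 102 pairs of groups within a host age, so no effect shared by number was seen. Whether same-numbered libraries came from the same mice is not given in the sources used here, and these correlations cannot decide it. Where each group entered as 1 value, which leaves 2 to 8 residual degrees of freedom, counts were 36 for age, 35 for aged Zfp219, 9 for young Zfp219, 24 for aged Dusp5, 1 for young Dusp5, 3 for the Zfp219 and 2 for the Dusp5 difference between ages. Of 212 peak calls tested with 1 value per group, 110 held and 102 were lost. Gene totals were not tested in that way. With peaks of the gene body alone, which are fewer, counts were 13 for aged Tprog against Tterm, 6 for Ttad against Tprog, 13 for aged and 17 for young Ttran against Tprog, and 0 for aged Ttran against Tterm. With the compared groups alone the Ttran against Tterm counts were 0 in aged and 19 in young hosts; the cause was not tested. Quantile normalization gave 4 for young Dusp5.

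Leaving out 1 library at a time gave 13 to 21 calls for the Dusp5 difference between ages, 5 to 10 for the state difference between ages, 15 to 18 for aged Tprog against Tterm, 5 to 8 for Ttad against Tprog, 4 to 6 for Ttad against Tterm, 0 to 2 for aged and 6 to 9 for young Ttran against Tterm, and 3 to 6 for young Dusp5.

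Of the 64 gene totals tested, 42 were called, 32 after quantile normalization of peaks and 23 after quantile normalization of the gene totals, an alternative added after seeing the data in which a gene's rank alone sets its value. Of the settings run, only this one reversed values of totals: Runx1 became 0.017 (aged Dusp5), 0.0047 (aged Tprog against Tterm) and 0.14 (aged Zfp219); Runx2 -0.051 (aged) and -0.034 (young Ttran against Tprog), and -0.021 and -0.076 with age in Zfp219 and Dusp5 cells; Runx3 -0.012 (age), 0.052 (young Dusp5) and -0.020 (young Ttran against Tterm). The Runx2 difference of aged Tprog against Tterm and the Runx3 difference of Ttad against Tterm became 0. Runx2 kept to ranks 2 to 6 and Runx3 to ranks 8 to 14, so these values cannot decide whether their differences hold.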
